A study of Homo sapiens with 6 samples.

Results

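The genes described are 31 transcriptional targets of the tumour suppressor p53, taken by symbol from a fixed list among 20474 annotated genes. All 31 were found in the deposited tables, each on 1 row, and 27 were tested because their mean over the 6 libraries reached 1 FPKM. FPKM is a fragment count scaled by transcript length and by the mapped fragments of the library, so levels of different genes can be compared on that scale. The cells were HCT116, a human colorectal cancer line that keeps wild-type p53. In 3 libraries the cells had received a non-targeting siRNA (sicontrol, labelled wild type) and in 3 an siRNA against POU2F1 (siPOU2F1, labelled as the knockdown). POU2F1 encodes the octamer-binding factor OCT1. PolyA RNA was taken 48 h after transfection in every library, with no DNA-damaging agent named, and the study as a whole concerns fragments of tRNA. The labels name no separate cultures, so the p-values measure only library-to-library spread, and that spread may be technical. The sequences of the siRNAs were not given in the sources used here.

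p53 is a transcription factor that is held at a low level by the ubiquitin ligase MDM2 and is released by DNA damage and other stresses. It then binds paired copies of a short DNA element near its targets and raises genes of cell cycle arrest, DNA repair, metabolism and cell death, as well as MDM2 itself, which closes a feedback loop. In unstressed cells with wild-type p53 many of these genes, CDKN1A and MDM2 among them, keep a basal level that depends on it. OCT1 is known from other work to bind the promoter of 1 of the targets, GADD45A.

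The p53 element shows in the DNA of some of these genes, and their start regions were searched for it because the genes are grouped by p53. RefSeq promoter windows on GRCh38.p14, from 250 bases before to 50 bases after a start site, matched 26 of the 31 genes with 36 windows. GADD45A, PHLDA3, RRM2B, TP53INP1 and TRIM22 had no entry. The 10-base p53 element (the consensus decamer, whose pattern reads the same on both strands) occurred in 6 of the 36 windows (16.7%) and in 6.63% of all 35116 windows. A pair of decamers no more than 13 bases apart occurred in 1 of the 36, that of DDB2, and in 10 of all windows (0.0285%). Capitals mark the decamers in the 30 bases around each match, written 5′ to 3′ on the strand of the gene.
DDB2 (chr11:47214975-47215004, plus strand): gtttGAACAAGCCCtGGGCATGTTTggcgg
AEN (chr15:88621296-88621325, plus strand): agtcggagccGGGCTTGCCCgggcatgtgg
FDXR (chr17:74872986-74873015, minus strand): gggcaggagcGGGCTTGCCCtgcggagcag
RPS27L (chr15:63157517-63157546, minus strand): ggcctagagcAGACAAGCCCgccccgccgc
PLK2 (chr5:58460199-58460228, minus strand): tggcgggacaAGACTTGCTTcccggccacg
SESN1 (chr6:109009018-109009047, minus strand): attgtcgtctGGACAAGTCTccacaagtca
The DDB2 pair lies from base 6 to base 26 after the start site. The octamer ATGCAAAT, or its reverse complement ATTTGCAT, occurred in 0 of the 36 windows and in 1.77% of all windows. At so low a share 0 of 36 says little, and GADD45A had no window to search. A match is a description of the sequence, and these windows leave out distant and intronic elements.

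POU2F1 was lower in each siPOU2F1 library. The mean in FPKM was 4.01 ± 0.359 for sicontrol against 1.76 ± 0.0984 for siPOU2F1 (SD, n = 3 each), with -0.99 as log2 fold change (limma, adjusted p = 0.0333; exact two-sided permutation p = 0.1, the smallest possible here). When any 1 library other than siPOU2F1 replicate 3 was left out, its adjusted p was 0.114 to 0.220. Between 11670 and 11853 annotated genes per library reached 1 FPKM, and the files give no read counts, so depth is unknown. Of 10 colon epithelial markers 7 had a mean of at least 1 FPKM, and CDX1, LGALS4 and KRT20 were near 0. Their summed level was 2705 to 3628 FPKM in sicontrol and 3740 to 5166 FPKM in siPOU2F1, and its part in the results was not tested. Most of that difference came from KRT8 (means 857 and 1684 FPKM) and KRT18 (1373 and 2023 FPKM), while EPCAM had 213 and 215 FPKM. PTPRC, DCN and COL3A1 were listed at 0 in every library, and 6 fibroblast markers summed to 1.88 to 3.69 FPKM. The summed level of 6 immune markers lay between 5.43 and 6.81 FPKM, most of it from CD68, and of 4 endothelial markers between 0.597 and 0.954 FPKM. The library siPOU2F1 replicate 3 stood apart from the other siPOU2F1 libraries. For the tested p53 targets the median absolute log2 distance between siPOU2F1 replicates 1 and 2 was 0.11, while replicate 3 lay 0.40 from their mean (0.10 and 0.33 over all tested genes). Fold changes of tested p53 targets that moved without it are therefore given both ways. That library was singled out by its values, and leaving it out narrows the spread within siPOU2F1. Adjusted p-values without it are therefore likely too small and are given as a description. The values are from bulk RNA, in which fewer expressing cells and less RNA per cell cannot be told apart.

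No p53 target gene passed the test. Each gene was compared as log2(FPKM + 0.5) with limma, with p-values adjusted by Benjamini-Hochberg over 11831 genes. Genes with an adjusted p under 0.05 are said to be called. Fold changes are siPOU2F1 minus sicontrol on that log2 scale, where the added 0.5 shrinks the change of low genes. Of the 27 tested targets 0 were called, where 147 of all tested genes were (1.24%). The lowest adjusted p was 0.0613, for DDB2. At an unadjusted p under 0.05 stood 9 of the 27 (33.3%) and 18.1% of all tested genes. Of those 9, 8 were lower in siPOU2F1 (GADD45A, CDKN1A, DDB2, POLH, TIGAR, TP53INP1, TRIAP1 and SUSD6) and 1 was higher (XPC). Of all 11831 tested genes 1171 were lower and 972 higher at that threshold. The median log2 fold change of the 27 was -0.21, beside -0.01 over all tested genes, and 19 of the 27 (70.4%) were negative, beside 51.5%.

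Groups did not overlap for 7 of the 27 genes (25.9%), close to the 23.4% of all tested genes. Of these, 5 were lower in siPOU2F1 (18.5%, background 12%) and 2 were higher (7.41%, background 11.3%). The counts turned on siPOU2F1 replicate 3. Without it 6 of the 27 were called lower (22.2%, background 15.7%) and 2 were called higher (7.41%, background 9.29%). The 6 were TIGAR, GADD45A, SESN2, AEN, DDB2 and TRIAP1, and the 2 were RPS27L and FDXR. Leaving out any other library gave 0 calls among the 27, with the lowest adjusted p between 0.136 and 0.290, each time for DDB2 (limma). Those fits called only 0 to 9 of all 11831 tested genes, so 0 of 27 says little about the p53 targets.

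**Figure D1:**
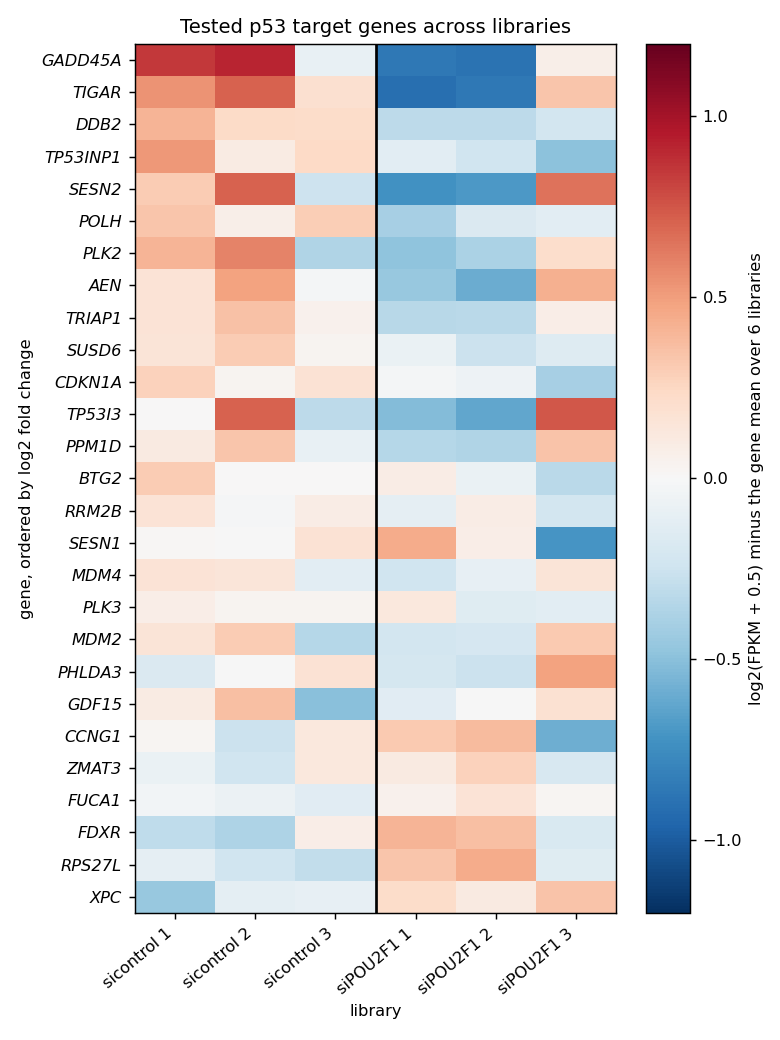
Colour shows log2(FPKM + 0.5) minus the gene's mean over the 6 libraries for the 27 tested p53 target genes (rows, ordered by log2 fold change) in each library (columns; the line divides sicontrol from siPOU2F1). The columns of siPOU2F1 replicates 1 and 2 look alike, whereas replicate 3 goes the other way in rows such as SESN2, TP53I3 and CCNG1.

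Of the 4 feedback genes 0 were called (1.24% of all tested genes were), and for each the groups overlapped. Over all tested genes 23.4% had groups that did not overlap. MDM2 (ENSG00000135679; chromosome 12, 68808176 to 68850686, plus strand, GRCh38), the ligase that degrades p53, measured 9.33, 10.4 and 6.495 FPKM in sicontrol, with libraries always given in the order of replicates 1 to 3. In siPOU2F1 it stood at 7.09, 7.17 and 10.5 FPKM. For MDM2 the highest and the lowest of the 6 values both came from libraries numbered 3. Its log2 fold change of -0.08 had an SE of 0.22 and a 95% interval from -0.60 to 0.45 (limma, adjusted p = 0.865), and it was -0.25 without siPOU2F1 replicate 3. MDM4, a relative of MDM2 that masks the activation domain of p53, measured 5.01, 4.93 and 4.02 FPKM in sicontrol and 3.68, 4.09 and 4.99 FPKM in siPOU2F1. Here too siPOU2F1 replicate 3 sat with the higher control libraries (-0.12, interval -0.50 to 0.26; -0.23 without that library). PPM1D, the phosphatase that switches off p53 signalling, measured 4.095, 4.85 and 3.51 FPKM in sicontrol and 2.85, 2.82 and 4.905 FPKM in siPOU2F1. Replicates 1 and 2 of siPOU2F1 lay below every control and replicate 3 above (-0.24, interval -0.79 to 0.31; without replicate 3, -0.47, limma, adjusted p = 0.0737). CCNG1, a cyclin that recruits a phosphatase to MDM2, was among the most abundant targets. Its values were 87.3, 72.1 and 93.8 FPKM in sicontrol and 107, 112.5 and 57.3 FPKM in siPOU2F1, so that siPOU2F1 held both the highest and the lowest libraries (0.07, interval -0.55 to 0.70; without replicate 3, 0.39, adjusted p = 0.0671).

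The 5 arrest genes all had negative fold changes (51.5% of all tested genes did), and GADD45A had the largest of any target. Of the 5, 0 were called (1.24% of all tested genes were). GADD45A (ENSG00000116717; chromosome 1, 67685061 to 67688338, plus strand), a stress sensor of arrest and repair, stood at 181, 190.0 and 94.5 FPKM in sicontrol. In siPOU2F1 it stood at 55.1, 54.1 and 105 FPKM. The groups overlapped only because sicontrol replicate 3 lay below siPOU2F1 replicate 3. The means were 155 ± 52.7 and 71.45 ± 29.2 FPKM (SD, n = 3 each), with a log2 fold change of -1.12, an SE of 0.35 and an interval from -1.94 to -0.29 (limma, adjusted p = 0.172). Without siPOU2F1 replicate 3 the change was -1.43 and was called in that fit only as a description (limma, adjusted p = 0.0195).

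CDKN1A (ENSG00000124762; chromosome 6, 36676460 to 36687339, plus strand) encodes p21, the cyclin-dependent kinase inhibitor through which p53 stops the cell cycle. It measured 111, 93.9 and 104 FPKM in sicontrol and 90.1, 88.0 and 69.7 FPKM in siPOU2F1. All 3 siPOU2F1 values lay below all 3 controls, by a small margin for replicates 1 and 2. The mean went from 103 ± 8.60 to 82.6 ± 11.2 FPKM (80.3% of control; log2 fold change -0.32, SE 0.13, adjusted p = 0.262, limma). In contrast to GADD45A, its fold change was smaller without siPOU2F1 replicate 3 (-0.20, adjusted p = 0.169). PLK2, a polo-like kinase of the stress response, measured 36.95, 42.0 and 21.4 FPKM in sicontrol and 19.7, 21.2 and 32.2 FPKM in siPOU2F1. As for GADD45A, both libraries numbered 3 lay between the others (-0.43; -0.64 without siPOU2F1 replicate 3). BTG2, an antiproliferative cofactor of mRNA deadenylation, and PLK3, a related kinase, had -0.21 and -0.10 with overlapping groups (-0.10 and -0.06 without siPOU2F1 replicate 3).

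**Figure D2:**
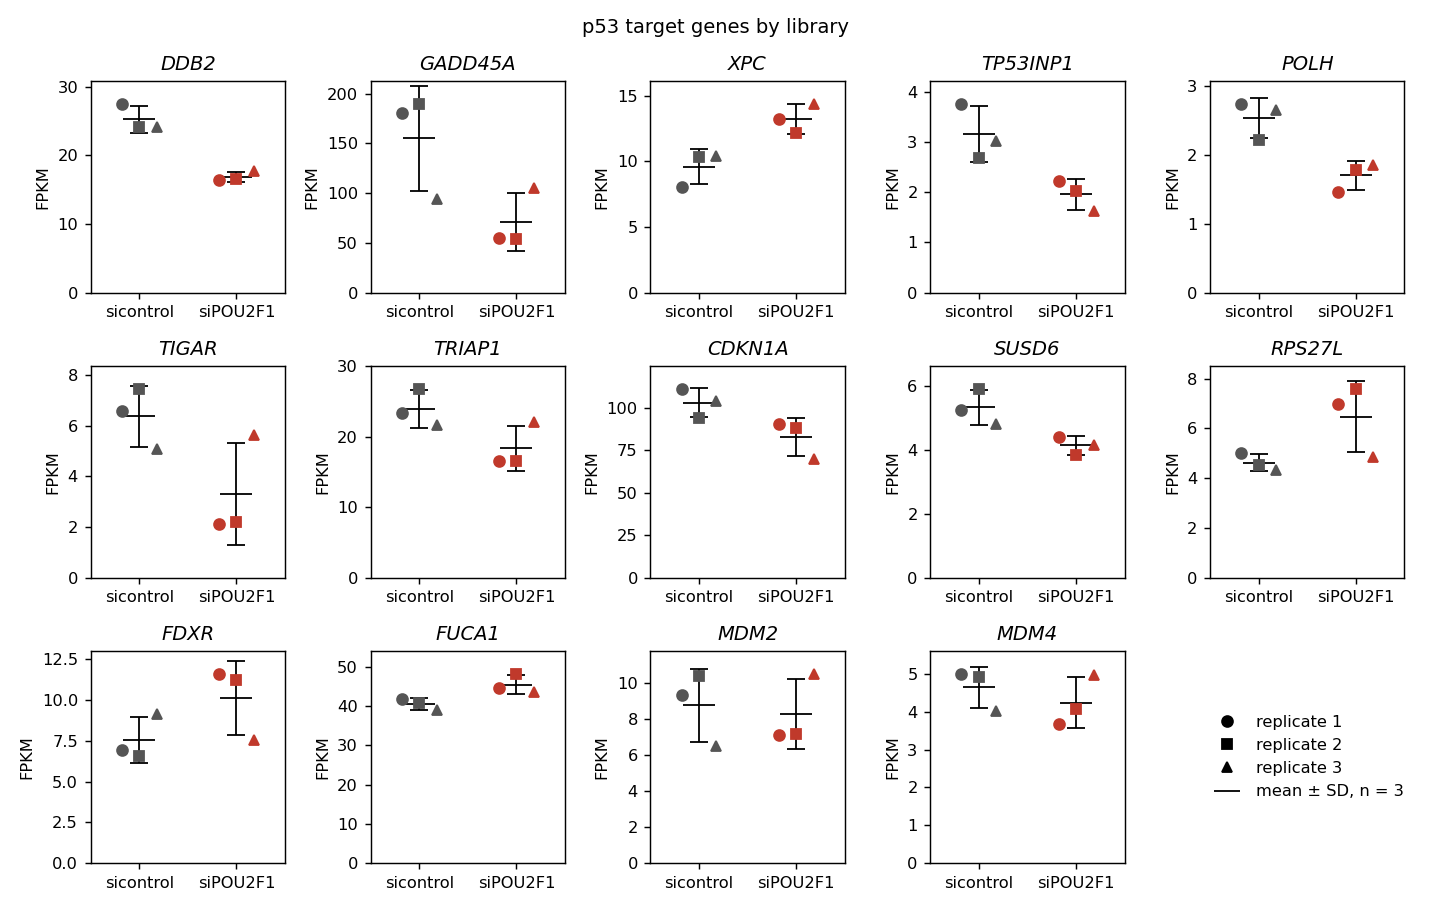
FPKM (vertical axes, from 0) of the 12 tested targets with the lowest p, MDM2 and MDM4, by siRNA group (horizontal axes), with 1 symbol per library shaped by replicate number and bars for the mean ± SD (n = 3). DDB2, POLH, TP53INP1, CDKN1A and SUSD6 lie lower and XPC and FUCA1 higher in all 3 siPOU2F1 libraries, while replicate 3 (triangles) of siPOU2F1 falls among the controls for TIGAR, TRIAP1, GADD45A, FDXR, RPS27L and MDM4.

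Of all 27 targets the repair gene DDB2 had the smallest p-value. DDB2 (ENSG00000134574; chromosome 11, 47214465 to 47239240, plus strand) encodes the subunit that recognises ultraviolet damage in DNA, and it is the gene with the paired p53 element printed above. Its level was 27.5, 24.2 and 24.0 FPKM in sicontrol and 16.45, 16.47 and 17.65 FPKM in siPOU2F1. The groups were far apart for their spread, and siPOU2F1 replicate 3 sat beside the other 2. Means were 25.2 ± 1.96 and 16.9 ± 0.689 FPKM (SD, n = 3 each), or 66.8% of control, with a log2 fold change of -0.57, an SE of 0.11 and an interval from -0.82 to -0.32 (limma, adjusted p = 0.0613). The adjusted p fell below the threshold when testing was limited to the 8695 genes whose mean reached 5 FPKM (0.0481) and without siPOU2F1 replicate 3 (0.0139). Without any 1 of the other 5 libraries it was between 0.136 and 0.290.

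POLH, the polymerase that copies past ultraviolet lesions, was a low gene at 2.74, 2.21 and 2.66 FPKM in sicontrol and 1.46, 1.79 and 1.86 FPKM in siPOU2F1. Its groups did not overlap (log2 fold change -0.46, SE 0.16, adjusted p = 0.212, limma). The change was -0.52 without siPOU2F1 replicate 3. XPC, the damage sensor that starts global nucleotide excision repair, went the other way. It measured 8.05, 10.3 and 10.45 FPKM in sicontrol and 13.2, 12.1 and 14.4 FPKM in siPOU2F1, with every siPOU2F1 library above every control (0.45, SE 0.14, adjusted p = 0.175). DDB2 and XPC, which act in the same repair pathway, therefore had fold changes of opposite sign (-0.60 and 0.39 without siPOU2F1 replicate 3). XPC shares 8.30% of its exonic bases with LSM3 on the opposite strand (mean 7.34 FPKM) and 16.6% with the antisense gene AC093495.1, which was not used here, and the strand setting of the counting was not stated, so part of its signal is uncertain. RRM2B, the p53-induced subunit of ribonucleotide reductase, had -0.16 (-0.09 without siPOU2F1 replicate 3).

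Several metabolic targets were divided by library. TIGAR (ENSG00000078237; chromosome 12, 4307763 to 4354593, plus strand), a bisphosphatase that restrains glycolysis, measured 6.58, 7.46 and 5.07 FPKM in sicontrol. In siPOU2F1 it measured 2.11, 2.19 and 5.65 FPKM, so replicates 1 and 2 lay far below the controls and replicate 3 among them. Over all libraries TIGAR had a log2 fold change of -0.95 and an SE of 0.35 (limma, adjusted p = 0.221), and -1.36 without siPOU2F1 replicate 3 (adjusted p = 0.00786, the lowest of the 27 in that fit). TIGAR shares 45.3% of its exonic bases with a same-strand gene model, AC008012.1, which was listed at 0 in all libraries. SESN2, a sestrin that restrains mTORC1 and is also induced by the integrated stress response, measured 5.54, 7.48 and 3.60 FPKM in sicontrol and 2.44, 2.51 and 7.15 FPKM in siPOU2F1. It had the same split, with -0.51 over all libraries (adjusted p = 0.516) and -0.97 without siPOU2F1 replicate 3 (adjusted p = 0.0432).

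TP53I3, a quinone oxidoreductase, measured 6.21, 10.4 and 4.89 FPKM in sicontrol and 4.17, 3.83 and 10.7 FPKM in siPOU2F1. Its highest values were thus in sicontrol replicate 2 and siPOU2F1 replicate 3, as for SESN2, and its fold change of -0.27 had an interval from -1.25 to 0.72 and was -0.70 without siPOU2F1 replicate 3 (limma, adjusted p = 0.109). SESN1, the other sestrin, was low (mean 1.44 FPKM) and had its lowest value, 0.656 FPKM, in siPOU2F1 replicate 3, where SESN2 was high. FDXR, the reductase that feeds electrons to mitochondrial ferredoxin, measured 6.92, 6.57 and 9.17 FPKM in sicontrol and 11.6, 11.3 and 7.54 FPKM in siPOU2F1. It was higher in siPOU2F1 replicates 1 and 2 than in any control but not in replicate 3 (0.39, adjusted p = 0.348; without that library 0.58, adjusted p = 0.0414, limma). FUCA1, a lysosomal fucosidase, was steady by comparison, at 41.9, 40.7 and 39.0 FPKM in sicontrol and 44.6, 48.3 and 43.6 FPKM in siPOU2F1. Its groups did not overlap, yet the difference was small (0.16, limma, adjusted p = 0.377, and 0.19 without siPOU2F1 replicate 3). ACER2, a ceramidase of the Golgi, was below the level tested, at 0.676, 0.549 and 0.532 FPKM in sicontrol and 1.01, 0.854 and 0.719 FPKM in siPOU2F1.

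Genes of cell death and survival were mixed. TP53INP1, a stress protein of autophagy and cell death, measured 3.76, 2.68 and 3.02 FPKM in sicontrol and 2.22, 2.02 and 1.62 FPKM in siPOU2F1. Every siPOU2F1 library lay below every control (log2 fold change -0.57, SE 0.18, adjusted p = 0.179, limma). The change was -0.47 without siPOU2F1 replicate 3. SUSD6, a sushi-domain membrane protein, measured 5.26, 5.90 and 4.81 FPKM in sicontrol and 4.40, 3.84 and 4.16 FPKM in siPOU2F1, also without overlap (-0.33, adjusted p = 0.268). TRIAP1, a mitochondrial survival factor, measured 23.4, 26.8 and 21.6 FPKM in sicontrol and 16.5, 16.6 and 22.1 FPKM in siPOU2F1. It followed the TIGAR pattern, with replicate 3 inside the control range (-0.38, adjusted p = 0.254; without that library -0.51, adjusted p = 0.0263).

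AEN, an apoptosis-enhancing nuclease, measured 38.15, 47.7 and 33.4 FPKM in sicontrol and 24.6, 22.3 and 45.8 FPKM in siPOU2F1. The difference was -0.42 over all libraries (limma, adjusted p = 0.437) and -0.74 without siPOU2F1 replicate 3 (adjusted p = 0.0225). RPS27L, a paralog of the ribosomal protein RPS27 that is induced by p53, measured 5.01, 4.54 and 4.33 FPKM in sicontrol and 6.98, 7.59 and 4.86 FPKM in siPOU2F1. It was higher in replicates 1 and 2 (0.42, adjusted p = 0.283; without replicate 3, 0.60, adjusted p = 0.0206), and whether it shares reads with RPS27 was not tested. ZMAT3, an RNA-binding regulator of splicing, had 0.13 (0.26 without siPOU2F1 replicate 3). PHLDA3, an inhibitor of AKT, had 0.01 although its siPOU2F1 values ran from 36.4 to 61.3 FPKM (-0.23 without replicate 3). It shares 22.2% of its exonic bases with a same-strand gene model, AC096677.2, which was not used here. EDA2R, a receptor of the TNF family, was below the level tested, at 0.608, 0.673 and 0.660 FPKM in sicontrol and 0.385, 0.364 and 0.466 FPKM in siPOU2F1. SPATA18, a factor of mitochondrial quality control, did not exceed 0.154 FPKM in any library.

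Of the secreted and antiviral targets, GDF15, a stress cytokine of the TGF-beta family, measured 31.5, 38.0 and 20.7 FPKM in sicontrol and 26.7, 29.4 and 33.4 FPKM in siPOU2F1. Its siPOU2F1 values all fell inside the control range (log2 fold change 0.03, interval -0.50 to 0.55; -0.06 without siPOU2F1 replicate 3). TRIM22, an antiviral ubiquitin ligase, was at most 0.0739 FPKM. By level, the listed genes were uneven in these cells, and how far any level depended on p53 was not tested. In FPKM averaged over the 6 libraries, GADD45A (113), CDKN1A (92.7) and CCNG1 (88.4) led, PHLDA3 (44.4) and FUCA1 (43.0) followed, and SESN1 (1.44) was the lowest of the tested genes. The order of these 3 depended on the siRNA group. In sicontrol the means were 155 FPKM for GADD45A, 103 FPKM for CDKN1A and 84.4 FPKM for CCNG1, and in siPOU2F1 they were 71.45, 82.6 and 92.3 FPKM. The libraries of neighbours in these orders overlapped, except that the lowest CDKN1A value in sicontrol (93.88 FPKM) just exceeded the highest CCNG1 value there (93.83 FPKM).

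**Figure D3:**
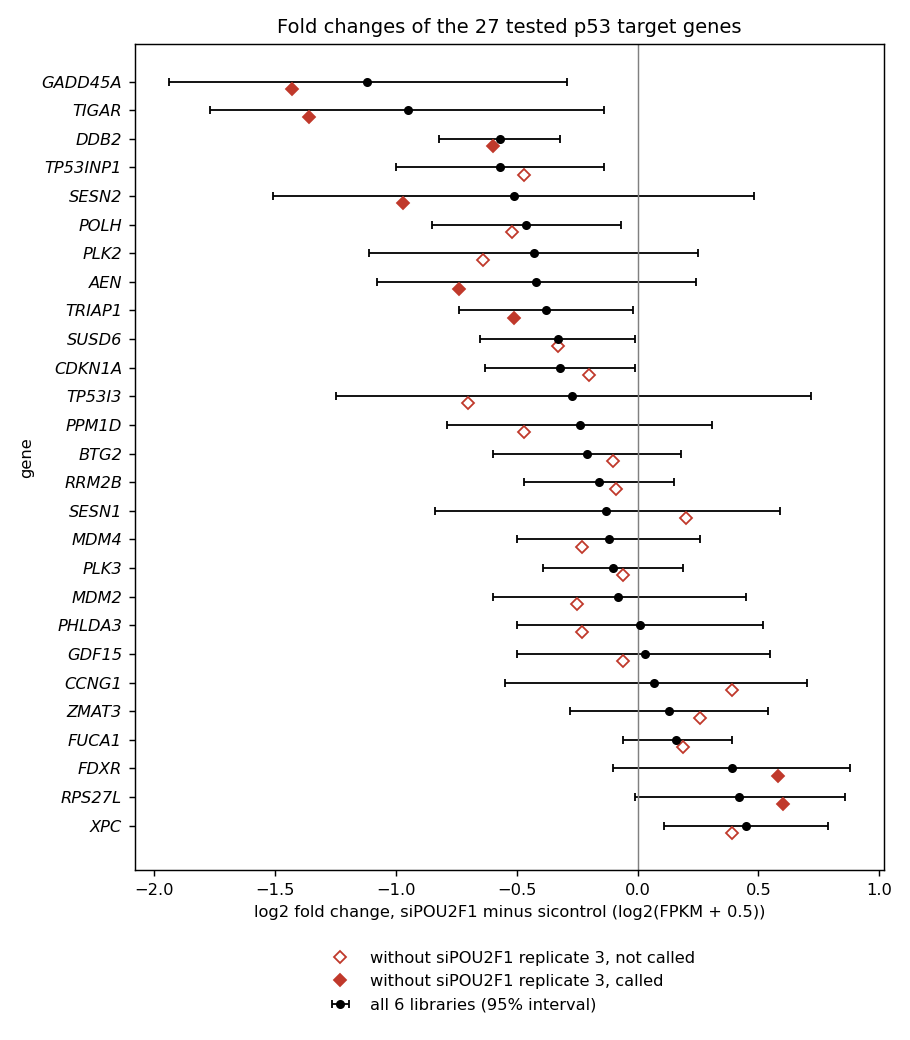
Log2 fold change (horizontal axis, siPOU2F1 minus sicontrol) of the 27 tested p53 target genes (vertical axis) with its 95% interval over all 6 libraries (black), and the value without siPOU2F1 replicate 3 (diamonds, filled where the adjusted p was under 0.05). Removing that library moved TIGAR from -0.95 to -1.36 and SESN2 from -0.51 to -0.97, and it moved SESN1 from -0.13 to 0.20.

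The library pattern ran through much of the list, and replicate 3 split these genes about as it split all tested genes. In 14 of the 27 genes (51.9%) both siPOU2F1 replicates 1 and 2 lay below every control, beside 35.0% of all tested genes, and siPOU2F1 replicate 3 was also below in 5 of those 14. The other 9 were PPM1D, GADD45A, PLK2, SESN2, TIGAR, TP53I3, AEN, PHLDA3 and TRIAP1. Over all tested genes with replicates 1 and 2 below every control, replicate 3 was also below in 1422 of 4144. Replicates 1 and 2 lay above every control in 5 genes (18.5%; 27.6% of all), of which XPC and FUCA1 were also higher in replicate 3 and CCNG1, FDXR and RPS27L were not. Over all tested genes of that kind, replicate 3 was also above in 1341 of 3260. Counted by library, 4, 5 and 11 of the 27 genes lay inside the range of the controls in siPOU2F1 replicates 1, 2 and 3 (25.7%, 25.7% and 42.7% of all tested genes). The median log2 distance from the sicontrol mean was -0.24, -0.24 and -0.11 in siPOU2F1 replicates 1 to 3 (-0.04, -0.03 and 0.04 over all tested genes). POU2F1 itself was as low in replicate 3 (1.73 FPKM) as in replicates 1 (1.87 FPKM) and 2 (1.69 FPKM). What sets replicate 3 apart was not tested.

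Among 33 tested regulators of p53, 0 were called, and 12 had an unadjusted p under 0.05 (36.4%, background 18.1%). Of those 12, 8 were lower and 4 higher in siPOU2F1, beside 1171 lower and 972 higher of all 11831 tested genes. Groups did not overlap for 6 lower and 6 higher regulators (18.2% each, backgrounds 12% and 11.3%). The 3 with the lowest p were all lower. TP53BP2, which encodes the p53 cofactor ASPP2, had means of 12.5 ± 1.68 and 7.05 ± 0.354 FPKM (SD, n = 3 each; log2 fold change -0.78, limma, adjusted p = 0.0531). KMT5A, a methyltransferase that also modifies p53, had -0.60 (adjusted p = 0.0810), and CHEK1, the checkpoint kinase, had -0.74 (adjusted p = 0.101). Without siPOU2F1 replicate 3, 10 of the 33 were called lower (30.3%, background 15.7%) and 2 higher (6.06%, background 9.29%). The list median was -0.12.

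A further 45 tested p53 targets outside the list of 31 had 0 calls as well, with 11 at an unadjusted p under 0.05 (24.4%, background 18.1%) and a median of -0.16. Of those 11, 8 were lower and 3 higher in siPOU2F1, beside 1171 lower and 972 higher of all 11831 tested genes. APAF1, the scaffold of the apoptosome, had means of 7.21 ± 0.495 and 3.79 ± 0.614 FPKM (SD, n = 3 each; log2 fold change -0.85, limma, adjusted p = 0.0536). CSF1, a growth factor of macrophages, had -0.80, and CERS5, a ceramide synthase, had -0.61 (adjusted p = 0.0733 and 0.0734). Without siPOU2F1 replicate 3, 12 of the 45 were called lower (26.7%, background 15.7%) and 2 higher (4.44%, background 9.29%). Of 30 cell cycle genes that p53 represses through p21 and the DREAM complex, 0 were called, 4 had an unadjusted p under 0.05 (13.3%, background 18.1%) and the median was -0.04 (0.04 without siPOU2F1 replicate 3). RRM2, a subunit of ribonucleotide reductase, had 0.36, MYBL2, a cell cycle transcription factor, -0.32 and CENPA, the centromeric histone, 0.61 (adjusted p from 0.179 to 0.224).

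**Figure D4:**
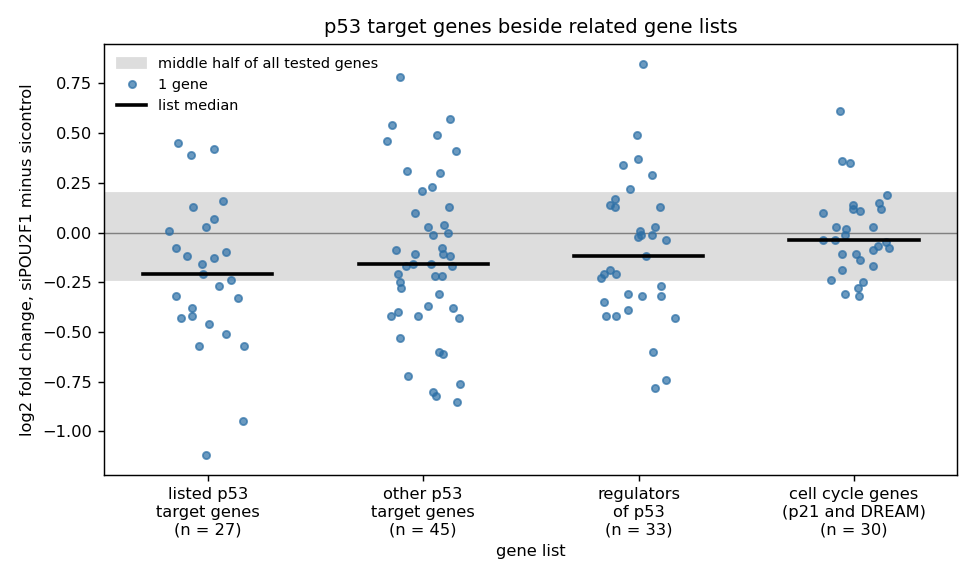
Log2 fold change (vertical axis, siPOU2F1 minus sicontrol) of each tested gene in 4 lists (horizontal axis, n below each name), with list medians as bars and the middle 50% of all tested genes in grey. The medians lie at -0.21, -0.16, -0.12 and -0.04, beside -0.01 over all tested genes; the grey band is the spread of single genes and is no test of a median.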

How the data were processed

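PolyA RNA of 6 HCT116 libraries (3 sicontrol, 3 siPOU2F1) was sequenced. The deposited tables hold FPKM values, per the file headers, with 1 table for each library. Per the submitters' processing notes, HISAT2 2.0.4, Bowtie2 2.2.5, StringTie 2.1.2 and hg38 were used, without roles. The annotation release, filters and strand setting were not given in the sources used here. Values were used as deposited, as log2(FPKM + 0.5), for the 11831 annotated genes whose mean over all 6 libraries reached 1 FPKM. Groups were compared with limma 3.58.1 (R 4.3.3; trended prior, group as the only term), with Benjamini-Hochberg adjustment over all tested genes. The procedure was tested on simulated data with independent noise for each gene, in which no library stood apart as siPOU2F1 replicate 3 does. Positions and exon overlaps came from GENCODE 29, and promoter sequences from RefSeq (GRCh38.p14). Motif matches cover both strands.

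The genes and lists were chosen with earlier results of these data known. Values per library are given for the 12 tested genes with the lowest p (CDKN1A among them), MDM2 and MDM4. From other lists up to 3 genes with the lowest p are named with means or fold changes. PPM1D, CCNG1, PLK2, SESN2, TP53I3, AEN, GDF15, ACER2 and EDA2R, given with values per library, were added after their values were seen. Alternatives were the pseudocount, the filter, quantile normalization, median centring, library weights, the prior, a replicate block and leaving out each library. Python 3.11.15 was used. The list of p53 family genes is not reported here.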

Additional observations from a re-analysis of the deposited data

How the results depend on the processing

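Under 12 of 15 alternative settings 0 p53 targets were called (limma), as in the report, where 9 had an unadjusted p under 0.05. DDB2 was the 1 call with a filter at a mean of 5 FPKM, 8 genes were called without siPOU2F1 replicate 3 (0 to 8 over the fits that leave out 1 library), and 19 were called with library weights, under which 5963 of all genes were called. Over all tested genes the count was 147, against 72 with no filter, 93 with a prior without a trend and 0 to 2954 without 1 library (0 when the library left out was siPOU2F1 replicate 1, siPOU2F1 replicate 2 or sicontrol replicate 1, then 5 and 9 for sicontrol replicates 2 and 3, and 2954 for siPOU2F1 replicate 3). The median of the tested p53 targets was -0.29 with library weights, against -0.21. It was -0.09 with the filter at 5 FPKM, which kept 18 of the 27 at unchanged fold changes. With library weights 22 of 33 regulators, 25 of 45 other targets and 10 of 30 cell cycle genes were called, beside 5963 of all 11831 genes. Without 1 library those counts ran from 0 to 12, 0 to 14 and 0 to 4. The 5 FPKM filter gave 1 regulator and 1 other target (193 of all 8695 genes). Median centring gave 1 and 1 (154 of 11831), and quantile normalization 1 other target (147 of 11831).

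With a replicate block 0 of all genes and 0 p53 targets were called, and POU2F1 kept -0.99 but lost its call (adjusted p = 0.297). The deviations of same-numbered libraries correlated at 0.133, -0.545 and -0.512, and 0 of the 6 libraries correlated best with its own number, so the numbers were not taken as pairs. Sicontrol replicate 2 correlated at 0.643 with siPOU2F1 replicate 3, and sicontrol replicate 3 at 0.449 and 0.39 with siPOU2F1 replicates 1 and 2. The differences among libraries were thus not confined to siPOU2F1, and their cause was not tested. POU2F1 had -0.99 with no filter (adjusted p = 0.0650) and -1.06 to -0.95 without 1 library, uncalled without any of the 5 other than siPOU2F1 replicate 3. It was below the 5 FPKM filter.

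Small fold changes turned sign. With library weights SESN1 had 0.13, PHLDA3 -0.12 and GDF15 -0.08. Without 1 library MDM2 ran from -0.27 to 0.05, CCNG1 from -0.10 to 0.39, TP53I3 from -0.70 to 0.02, PHLDA3 from -0.23 to 0.14, GDF15 from -0.22 to 0.21 and SESN1 from -0.38 to 0.20. No other p53 target did so in any setting run. The cause of these changes was not tested. No depth was available, so low genes such as SESN1 and POLH carry no counting interval.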

Other observations

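The words AACTGCA and AGAATGA had been picked from 3′ UTRs by the fold changes of these same libraries, so their presence in the p53 targets is given as a description only. All 27 tested targets had a 3′ UTR in the transcript with the longest coding sequence of the GENCODE 29 basic set. AACTGCA occurred in 2 of them (7.41%), SUSD6 and TP53INP1, and in 11.7% of 11384 tested genes with a 3′ UTR of at least 20 bases. AGAATGA occurred in 5 of the 27 (18.5%; MDM2, PLK2, RRM2B, SUSD6 and ZMAT3) and in 13.8% of those genes. Either word occurred in 6 of the 27 (22.2%) and in 22.1% of all. GADD45A, TIGAR, DDB2, SESN2, POLH and CDKN1A held neither.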
